A study of Mus musculus with 15 samples.

Results

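The 39 genes described here encode the enzymes, carriers and regulators of fatty acid oxidation, together with well-known targets of PPAR-alpha. They were chosen by name and matched to array probes through RefSeq accessions. All 39 had a probe on the array, and all 39 passed the filter on dim probes and were among the 16055 genes tested. All of them were also well above background on every array. By role, 20 were mitochondrial enzymes and carriers, 10 were peroxisomal enzymes and proteins, and 9 were regulators and other targets. Crat, counted as mitochondrial, and Ech1, Eci2 and Slc27a2, counted as peroxisomal, were set apart for some medians. Their proteins may not be confined to that organelle, and their place in the cell was not tested. The kidney RNA came from male C57/BJ mice that had been operated at 6 weeks of age and then kept for 20 weeks on a high-fat (HFD) or a low-fat chow (LFD) diet. In uninephrectomy (UNX) the left kidney was taken out, and in the sham operation it was handled and left in place. The groups were LFD-sham (4 mice), LFD-UNX (4 mice), HFD-sham (3 mice) and HFD-UNX (4 mice), with 1 array for each mouse, while the labels state 6 mice per group. The labels name no transgene and no drug for any group. The design compared the 4 groups, so that each diet could be read with 2 kidneys and with 1, and each operation on both diets.

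Fatty acids enter the mitochondrion as carnitine esters, through the CPT1 enzymes on the outer membrane, the SLC25A20 translocase and CPT2 on the inner membrane. There they are shortened in rounds of dehydrogenation, hydration, a second dehydrogenation and thiolysis, with electrons passed to the respiratory chain through the electron transfer flavoprotein. Peroxisomes shorten very long and branched chains with their own enzymes. PPAR-alpha is a nuclear receptor activated by fatty acids that raises transcription of many of these genes, and PGC-1alpha is a coactivator of it. The proximal tubule of the kidney is known for using fatty acids as its main fuel.

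Levels are given as the log2 of the processed signal minus the 75th percentile of that array, called the normalised log2 signal. They allow a gene to be compared between mice, not with another gene. A gene passed where the Benjamini-Hochberg adjusted p of limma, taken over all 16055 genes, was under 0.05. All HFD arrays lay on slides 1 and 2 of scan day 1, LFD-sham on slide 3 and LFD-UNX on slide 4 of scan day 2. Diet therefore cannot be told apart from scan day, nor LFD-UNX against LFD-sham from slide. The share of spots well above background ran from 60.5% to 73.4% per array, on average 70.0% on the HFD and 63.4% on the LFD arrays. All 10 proximal tubule markers were well above background on all 15 arrays, and their summed log2 signal lay between 9.29 and 9.76, so the labelled tissue was borne out.

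PPAR-alpha binds, with RXR, to a direct repeat of the core AGGTCA with 1 base between the copies, the DR1 element. RefSeq promoter windows on build GRCm38.p6, each from 250 bases before to 50 bases after the start of a gene, were found for 32 of the 39 genes. Each was searched on both strands for AGGTCANAGGTCA with at most 2 mismatches. A match occurred for 3 of the 32 genes, Slc25a20, Plin2 and Etfa, beside 3.86% of all 32851 windows in the same table. With at most 1 mismatch no window of the 32 genes held a match, beside 0.554% of all windows. The windows with a match are shown because they carry the search result, and that of Acaa1a because this gene passed in both diet comparisons. Capitals mark the match. The Slc25a20 window lay at chr9:108661886-108662185 on the plus strand, with the match starting at position 6 from the start site. The Plin2 window lay at chr4:86670010-86670309 on the minus strand, and its match, on the opposite strand, began at position -225. The Etfa window lay at chr9:55512194-55512493 on the minus strand, and its match, also on the opposite strand, began at position -77. The Acaa1a window lay at chr9:119341044-119341343 on the plus strand and held no match.
Slc25a20: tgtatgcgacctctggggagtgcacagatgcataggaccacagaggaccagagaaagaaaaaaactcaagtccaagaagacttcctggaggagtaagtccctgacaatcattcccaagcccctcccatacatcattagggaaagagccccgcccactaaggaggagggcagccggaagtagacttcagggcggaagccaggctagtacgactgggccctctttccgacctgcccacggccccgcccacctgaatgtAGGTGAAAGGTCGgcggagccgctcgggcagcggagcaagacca
Plin2: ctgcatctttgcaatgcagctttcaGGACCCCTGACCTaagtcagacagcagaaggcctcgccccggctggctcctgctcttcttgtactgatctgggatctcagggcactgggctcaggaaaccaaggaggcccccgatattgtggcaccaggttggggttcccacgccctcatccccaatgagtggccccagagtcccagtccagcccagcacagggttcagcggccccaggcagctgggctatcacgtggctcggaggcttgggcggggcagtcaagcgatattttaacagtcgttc
Etfa: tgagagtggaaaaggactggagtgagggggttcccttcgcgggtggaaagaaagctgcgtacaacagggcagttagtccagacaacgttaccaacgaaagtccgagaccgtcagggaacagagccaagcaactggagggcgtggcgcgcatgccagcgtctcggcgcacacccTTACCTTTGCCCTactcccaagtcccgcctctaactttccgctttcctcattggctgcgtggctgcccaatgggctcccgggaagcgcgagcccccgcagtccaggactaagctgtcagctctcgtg
Acaa1a: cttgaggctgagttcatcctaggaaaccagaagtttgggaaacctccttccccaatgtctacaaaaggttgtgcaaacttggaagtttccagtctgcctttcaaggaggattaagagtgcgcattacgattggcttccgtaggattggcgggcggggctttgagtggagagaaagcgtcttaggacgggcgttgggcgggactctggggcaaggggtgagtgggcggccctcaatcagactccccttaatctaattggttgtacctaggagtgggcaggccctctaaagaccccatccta
A match is a description of these letters and not a binding site. None of the 3 genes with a match passed in any of the 5 comparisons below. Angptl4 and Decr1, which passed in a diet comparison, had no window and were not searched. The other genes without a window were Vnn1, Cpt1b, Crat, Hsd17b4 and Acaa2.

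**Figure D1:**
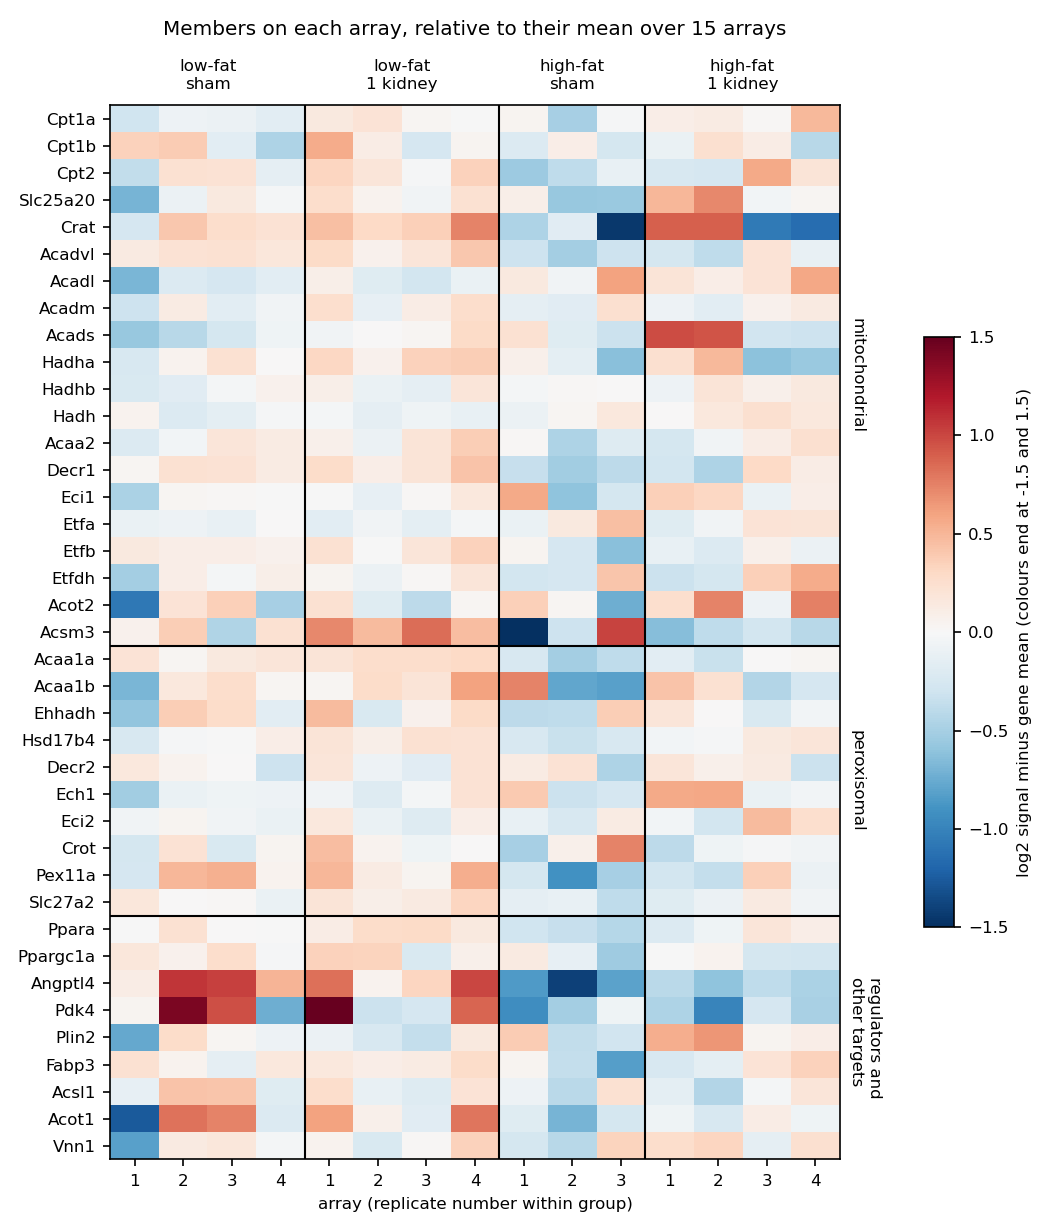
Normalised log2 signal of the 39 genes (rows, by role) on the 15 arrays (columns, by group and replicate number), each shown minus the mean of that gene over the 15 arrays; colours end at -1.5 and 1.5. Angptl4 is lower on all 7 HFD arrays than on any LFD array, while Crat and Acads split the HFD-UNX arrays into 1 and 2 against 3 and 4, which are the 2 slides of that diet.

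In mice with 2 kidneys, 6 of the 39 genes passed as lower on the high-fat diet than on the low-fat diet and none as higher. They were Angptl4 and Ppara among the regulators and targets, Acaa1a and Pex11a among the peroxisomal genes, and Acadvl and Decr1 among the mitochondrial genes. Over all genes tested 13.9% passed in this comparison, 7.41% lower and 6.48% higher. The number of members that passed was close to the 13.9% of both directions together. All 6 were lower, and their count was not tested against the 7.41%. With the slide as a random block none of the 6 passed, with adjusted p of 0.123 for Angptl4, 0.202 for Acaa1a, 0.222 for Acadvl, 0.253 for Decr1, 0.288 for Ppara and 0.362 for Pex11a. The log2 difference was below 0 for 25 of the 39 genes and above 0 for 14, beside 48.2% of all genes above 0. The median was -0.22, beside -0.02 over all genes, and was -0.14 without LFD-sham 2, -0.12 without LFD-sham 3 and -0.10 without HFD-sham 2. The 26 respiratory chain genes, taken for comparison, leaned the same way, with 23 of 26 below 0 and a median of -0.13, and 1 of them passed, higher. For the 8 markers of other nephron segments the median was -0.32, with 5 of 8 below 0, and 1 passed, higher. The 10 proximal tubule markers had a median of 0.03, with 4 of 10 below 0, and 1 passed, higher. The groups did not overlap in 8 genes that were lower and 1 that was higher on the high-fat diet, beside 15.2% and 11% of all genes. In whole kidney tissue, fewer cells of a type and less RNA per cell cannot be told apart.

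Angptl4, a secreted inhibitor of lipoprotein lipase and a target of PPAR-alpha, had the largest difference of the 39 genes in sham mice. Its normalised log2 signal was 4.67, 5.63, 5.58 and 5.07 in LFD-sham mice 1 to 4, and 3.71, 3.16 and 3.75 in HFD-sham mice 1 to 3. Every HFD-sham mouse was below every LFD-sham mouse. The log2 difference was -1.70 ± 0.26 (SE), a level 3.24-fold lower, with an adjusted p of 0.00219 in limma. After uninephrectomy it read 5.38, 4.61, 4.88 and 5.56 on the low-fat diet against 4.16, 3.95, 4.17 and 4.09 on the high-fat diet, again with no overlap. There the high-fat level was 2.03-fold lower, a log2 difference of -1.02 ± 0.24 with an adjusted p of 0.014. With the slide as a random block the difference kept its size, but the adjusted p was 0.123 in sham mice and 0.325 in mice with 1 kidney.

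Ppara, which encodes PPAR-alpha itself, read 3.85, 4.09, 3.87 and 3.85 in the LFD-sham mice and 3.57, 3.52 and 3.44 in the HFD-sham mice. The groups did not overlap, and the log2 difference of -0.41 ± 0.12 (adjusted p 0.0377) was a level 1.33-fold lower. In mice with 1 kidney the difference was -0.20 ± 0.11 and did not pass (adjusted p 0.256). When the adjustment was made over all 28244 probes, the probe used for Ppara had an adjusted p of 0.0508 in sham mice. Ppara passed in 9 of 21 alternative settings in sham mice. Without any of LFD-sham 1, 2, 3 and 4 or HFD-sham 2 and 3 its adjusted p was above 0.05 (0.0623, 0.102, 0.0722, 0.0586, 0.0838 and 0.0769). Ppargc1a, which encodes PGC-1alpha, was not called on either kidney number with the probe used for the gene, with log2 differences of -0.29 ± 0.18 in sham mice and -0.26 ± 0.16 in mice with 1 kidney. Its second, dimmer probe had -0.32 ± 0.16 in sham mice and -0.58 ± 0.15 in mice with 1 kidney, where the adjusted p over all 28244 probes was 0.0244. That probe read -1.71, -1.75, -2.10 and -1.94 in LFD-UNX and -2.60, -2.50, -2.57 and -2.14 in HFD-UNX mice, with no overlap. Both probes of Ppargc1a were thus lower on the high-fat diet. Only the dimmer one, with 1 kidney, had an adjusted p under 0.05 over all probes.

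Among the other targets, Pdk4, a kinase that switches off pyruvate dehydrogenase, had log2 differences of -0.93 ± 0.52 in sham mice and -1.05 ± 0.48 in mice with 1 kidney. Neither passed (adjusted p 0.248 and 0.158). Its levels in LFD-sham mice were 0.76, 2.12, 1.68 and -0.01, and in LFD-UNX mice 2.42, 0.40, 0.47 and 1.59, so mice of the same group differed widely. The HFD mice were closer together, between -0.27 and 0.65. Plin2, a coat protein of lipid droplets, had a log2 difference of 0.04 ± 0.25 in sham mice and 0.47 ± 0.24 in mice with 1 kidney (adjusted p 0.203). The muscle-type fatty acid binding protein gene Fabp3 differed by -0.46 ± 0.19 in sham mice and did not pass (adjusted p 0.125). Acsl1, Acot1 and Vnn1, which encode an acyl-CoA synthetase, a cytosolic acyl-CoA thioesterase and pantetheinase, were not called in either comparison, with log2 differences between -0.40 and 0.13. For Acsl1 the probe used had -0.22 ± 0.21 and -0.15 ± 0.19, and its second probe 0.16 ± 0.35 and 0.41 ± 0.33. Of the 9 regulators and other targets, 2 passed in sham mice and 1 in mice with 1 kidney, beside 13.9% and 14.2% of all genes. Their medians were -0.40 (-0.25 without LFD-sham 3) and -0.20.

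Acaa1a, a peroxisomal 3-ketoacyl-CoA thiolase, passed beside Angptl4 on both kidney numbers. Its levels were 5.82, 5.64, 5.77 and 5.80 in LFD-sham and 5.37, 5.10 and 5.23 in HFD-sham mice. After surgery they were 5.81, 5.88, 5.88 and 5.92 on the low-fat diet, and 5.46, 5.27, 5.62 and 5.65 on the high-fat diet. The groups overlapped in neither case, and the spread within a group was among the smallest of all 39 genes. The log2 differences were -0.52 ± 0.12 (1.44-fold lower, adjusted p 0.0128) and -0.37 ± 0.11 (1.29-fold lower, adjusted p 0.0373). The adjusted p after uninephrectomy was above 0.05 without any of LFD-UNX 1, 2, 3 and 4 (0.0698, 0.0785, 0.0859 and 0.0991) and without HFD-UNX 1 or 2 (0.0845 and 0.107). In sham mice it was 0.053 without HFD-sham 2. With the slide as a random block it was 0.202 in sham mice and 0.393 in mice with 1 kidney. Acaa1a and its near-identical copy Acaa1b have 1 probe each, and whether the probes tell the transcripts apart was not tested. Acaa1b, with log2 differences of -0.22 ± 0.35 and -0.28 ± 0.33, did not pass.

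Pex11a, a membrane protein of dividing peroxisomes, read 3.51, 4.25, 4.29 and 3.81 in LFD-sham mice and 3.50, 2.84 and 3.26 in HFD-sham mice. The lowest LFD-sham mouse was only just above the highest HFD-sham mouse. The difference of -0.77 ± 0.23 passed (1.70-fold lower, adjusted p 0.0446), and in mice with 1 kidney the difference of -0.39 ± 0.22 did not (adjusted p 0.249). The call for Pex11a was lost without LFD-sham 2, 3 or 4 (adjusted p 0.109, 0.118 and 0.0619) and without HFD-sham 2 or 3 (0.169 and 0.067). The remaining peroxisomal genes did not pass. Ehhadh, the peroxisomal bifunctional enzyme and a classic PPAR-alpha target, had differences of -0.11 ± 0.25 and -0.17 ± 0.23. Hsd17b4, which encodes the other multifunctional enzyme of peroxisomes, differed by -0.23 ± 0.11 and -0.11 ± 0.10. Of the 10 peroxisomal genes, 2 passed in sham mice and 1 in mice with 1 kidney, beside 13.9% and 14.2% of all genes. In each comparison 8 were below 0, with medians of -0.17 and -0.20. The former was -0.08 without LFD-sham 2, -0.08 without LFD-sham 3 and -0.07 without HFD-sham 2, and the latter -0.12 without LFD-UNX 1. Without Ech1, Eci2 and Slc27a2, the genes set apart, the median in sham mice was -0.22.

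**Figure D2:**
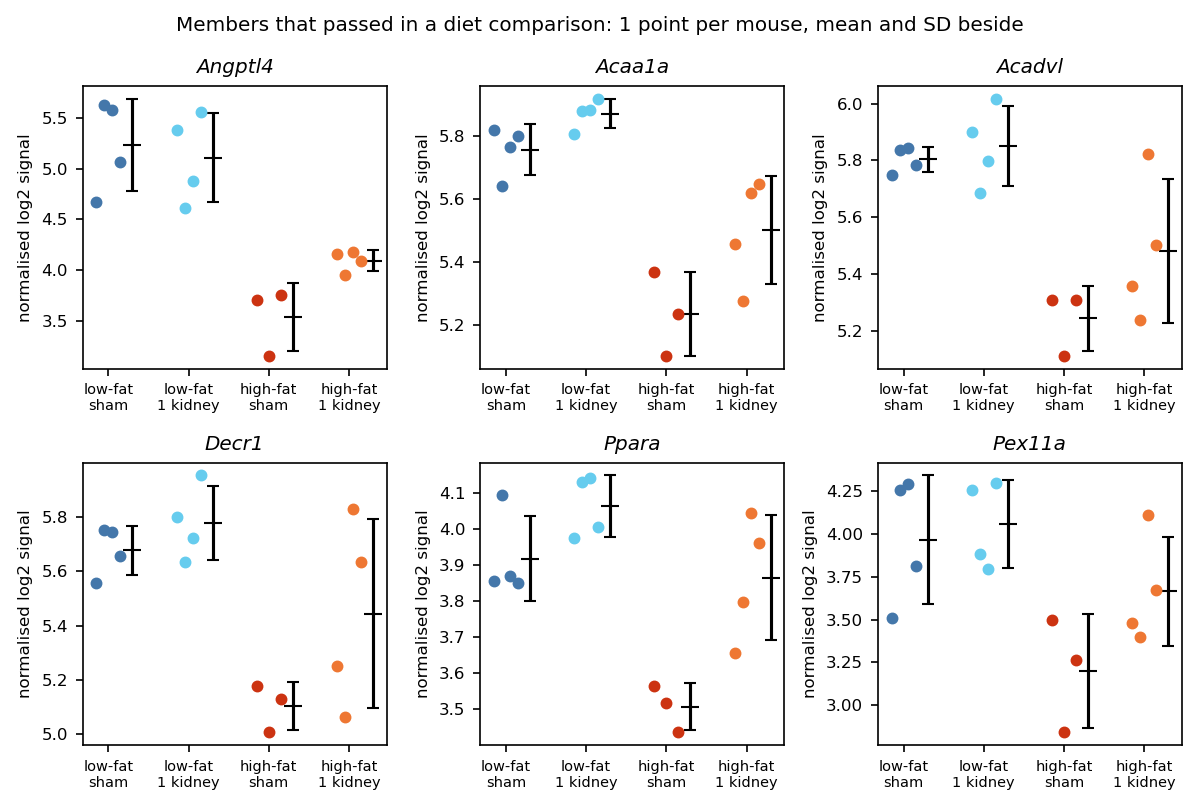
Normalised log2 signal (vertical axis) of the 6 genes that passed in a diet comparison, in the 4 groups, with 1 point per mouse and the mean and SD beside the points. In all 6 panels every HFD-sham mouse lies below every LFD-sham mouse, and for Angptl4 and Acaa1a the same holds for the groups with 1 kidney.

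The mitochondrial genes were divided in direction. Of the 20, 10 were above and 10 below 0 in each of the 2 diet comparisons. The medians of -0.07 and -0.04 depended on single mice, from -0.12 without LFD-sham 1 to -0.0012 without LFD-sham 2 in sham mice, and from -0.10 without HFD-UNX 3 to 0.02 without LFD-UNX 1 in mice with 1 kidney. Without Crat, the gene set apart, the median in sham mice was 0.0008. Acadvl, the dehydrogenase for very long chains on the inner membrane, read 5.75, 5.84, 5.84 and 5.78 in LFD-sham and 5.31, 5.11 and 5.31 in HFD-sham mice. Its difference of -0.56 ± 0.14 passed (1.47-fold lower, adjusted p 0.0192), and the difference of -0.37 ± 0.13 in mice with 1 kidney did not (adjusted p 0.0725). For Acadvl the adjusted p in sham mice was 0.0521 without LFD-sham 3 and 0.0728 without HFD-sham 2. Acadl, the long-chain dehydrogenase, ran the other way. It read 1.83, 2.31, 2.27 and 2.36 in LFD-sham mice and 2.66, 2.46 and 3.12 in HFD-sham mice, without overlap, and the difference of 0.56 ± 0.18 did not pass (adjusted p 0.055). In sham mice Acadl passed, as higher, in 8 of 21 alternative settings. With 1 kidney the difference was 0.39 ± 0.17 (adjusted p 0.141). The medium-chain dehydrogenase Acadm and the short-chain dehydrogenase Acads differed by 0.08 ± 0.15 and 0.24 ± 0.30 in sham mice.

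Decr1 encodes the reductase that lets unsaturated chains through. With the probe used for the gene it read 5.56, 5.75, 5.74 and 5.65 in LFD-sham and 5.18, 5.01 and 5.13 in HFD-sham mice, a difference of -0.57 ± 0.16 (1.49-fold lower, adjusted p 0.0341). The second probe of the same transcript accession went the other way, from -0.14 ± 0.38 (SD, n = 4) in LFD-sham to 0.47 ± 0.25 (SD, n = 3) in HFD-sham mice. That difference of 0.61 ± 0.20 had an adjusted p of 0.066 over all 28244 probes, and the one in mice with 1 kidney, 0.60 ± 0.19, had 0.051. Adjusted in the same way, the probe used for the gene had 0.0433 in sham mice. With the mean of the 2 probes, Decr1 was 0.02 higher on the high-fat diet in sham mice. The direction for Decr1 is therefore that of a probe. Its call was lost without any of LFD-sham 1, 2, 3 and 4 or HFD-sham 2 and 3 (adjusted p 0.052, 0.0774, 0.0821, 0.0616, 0.104 and 0.0544). The further probes of Ppara had differences of 0.10 ± 0.19 and 0.00 ± 0.30 in sham mice, and with the mean of its probes the difference was -0.10 (adjusted p 0.657). Angptl4, Acaa1a, Pex11a and Acadvl had a single probe.

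**Figure D3:**
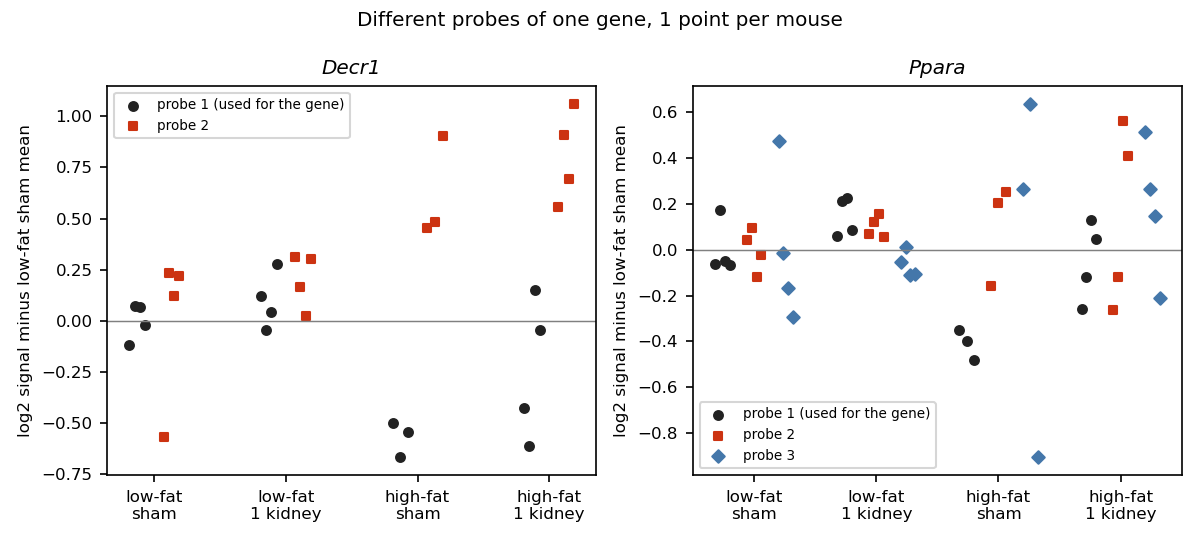
Signal of each probe of Decr1 (2 probes) and Ppara (3 probes) as log2 minus that probe's LFD-sham mean (vertical axis), in the 4 groups, with 1 point per mouse. For Decr1 the probe used for the gene is lower and the second probe higher in all HFD-sham mice than the LFD-sham mean. For Ppara only the probe used for the gene is below 0 in all 3 HFD-sham mice.

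At the entry to the mitochondrion, Cpt1a had a log2 difference between diets of 0.00 ± 0.15 in sham mice and 0.09 ± 0.14 in mice with 1 kidney. Cpt1b, the muscle-type form, differed by -0.15 ± 0.24 and -0.16 ± 0.22. Cpt2 differed by -0.33 ± 0.21 and -0.14 ± 0.20, and the translocase gene Slc25a20 by -0.18 ± 0.24 and 0.17 ± 0.22. The second probe of Cpt2 went the other way, with 0.06 ± 0.38 and 0.23 ± 0.35. None of them passed. Crat, the carnitine acetyltransferase, had a larger difference of -0.85 ± 0.48 in sham mice and -0.56 ± 0.44 in mice with 1 kidney, with a wide spread (adjusted p 0.25 and 0.421). Hadha, the alpha subunit of the trifunctional protein, differed by -0.25 ± 0.25 and -0.38 ± 0.23. Acsm3, a medium-chain acyl-CoA synthetase, read 4.83, 4.58, 4.94 and 4.56 in LFD-UNX and 3.47, 3.72, 3.83 and 3.69 in HFD-UNX mice, with no overlap. The difference of -1.05 ± 0.40 did not pass (adjusted p 0.0916), and its second probe had -1.29 ± 0.41. The HFD-sham mice spread from 2.42 to 5.12 for Acsm3, wider than the distance between the means of the other groups.

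In mice with 1 kidney 2 of the 39 genes passed between diets, both lower, beside 14.2% of all genes (6.52% lower and 7.67% higher). No test of the members' count against that share was made. Again 25 of the 39 were below 0 and 14 above, beside 48.8% of all genes above 0, with a median of -0.14 beside -0.01, which was -0.08 without HFD-UNX 2. Of the respiratory chain genes 19 of 26 were below 0, with a median of -0.11, and 3 passed, 2 higher and 1 lower. The groups did not overlap in 3 genes that were lower and 2 that were higher, beside 11.1% and 11.4% of all genes. The count of genes that passed also moved with single mice. In sham mice it was 3 without LFD-sham 2, 2 without LFD-sham 3, 3 without LFD-sham 4 and 2 without HFD-sham 2. After uninephrectomy it was 1 without any of LFD-UNX 1, 2, 3 and 4 or HFD-UNX 1 and 2, and 4 without HFD-UNX 3. Angptl4 was past the threshold in each of these.

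**Figure D4:**
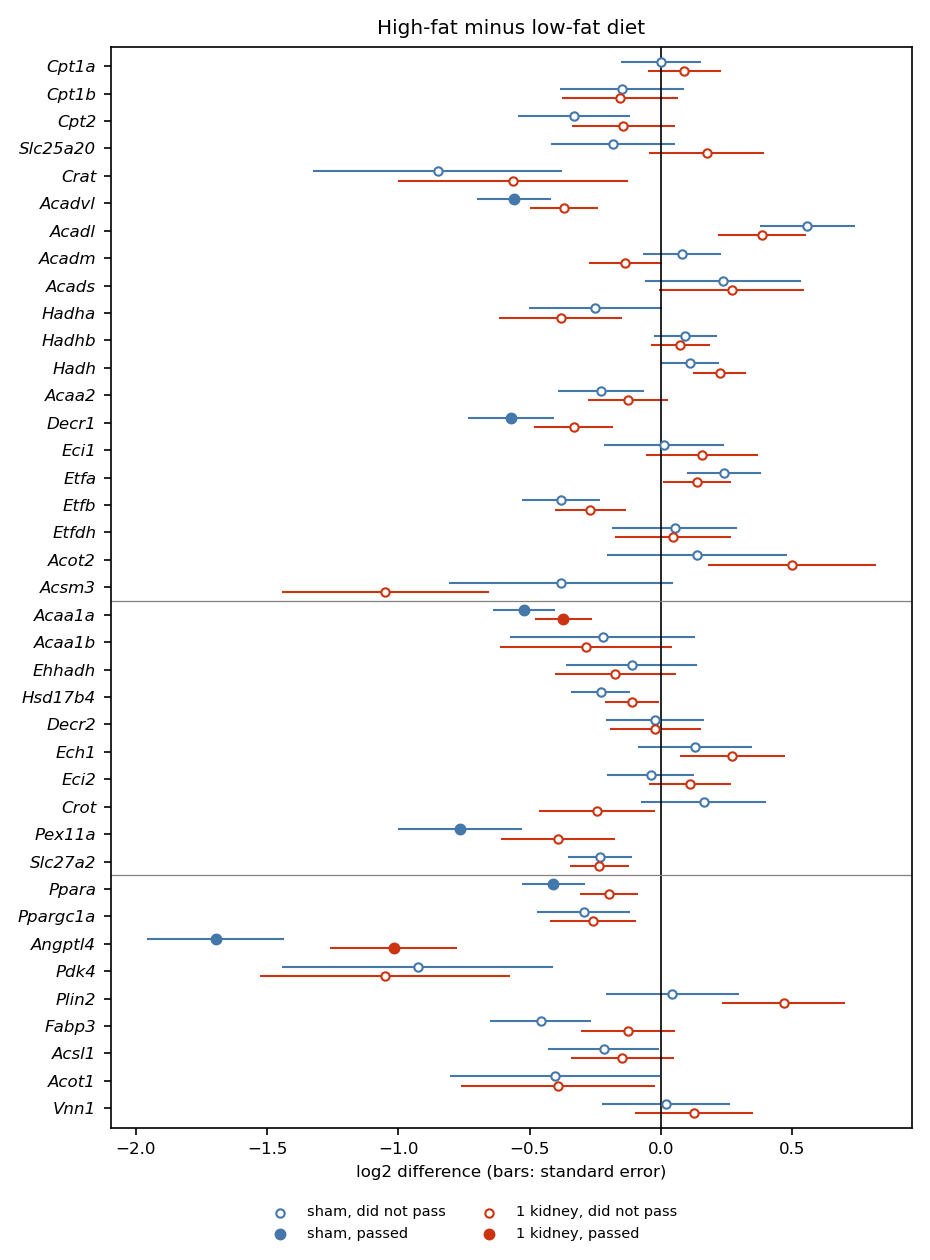
Log2 difference between high-fat and low-fat diet (horizontal axis, with standard error bars) of each of the 39 genes (rows, by role), in sham mice and in mice with 1 kidney; filled points passed. Angptl4 is farthest to the left in sham mice at -1.70, Acadl is farthest to the right there at 0.56, and no gene to the right of 0 passed.

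Markers of some other tissues differed between diets as well. The summed log2 signal of 9 adipocyte markers lay between 4.74 and 5.46 in LFD-sham, 3.98 and 4.75 in LFD-UNX, 3.46 and 4.45 in HFD-sham, and 3.46 and 4.38 in HFD-UNX mice. All 9 were lower in HFD-sham than in LFD-sham mice, with a median of -2.18, and 3 of them passed. In mice with 1 kidney 6 of the 9 were higher on the high-fat diet, with a median of 0.15, and 2 passed, 1 higher and 1 lower. Lep was well above background on 7 of the 15 arrays and Adipoq on all 15. Angptl4 is also made by fat cells, and the part of these markers in its difference was not tested. Of 5 brown adipocyte markers tested none passed, with 3 lower in sham mice and 2 lower with 1 kidney. Of 9 liver markers 8 were lower on the high-fat diet in either comparison. In sham mice 1 liver marker passed, higher, and with 1 kidney 3 passed, 1 higher and 2 lower. Of 8 striated muscle markers 4 were tested. All 4 were lower in HFD-sham than in LFD-sham mice, with a median of -0.76, and 1 passed, while 2 of 4 were lower with 1 kidney, with a median of -0.20. Acta1 and Myh6 were well above background on all 15 arrays, Tnni3 on 8, Tnnt3 on 4, Myh4 on 1, and Ckm, Mylpf and Actn2 on none. The part of the liver and muscle markers in the diet differences was not tested.

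Of 68 other genes of fatty acid metabolism, 65 were tested. In sham mice 8 of them passed, 3 higher and 5 lower on the high-fat diet, and in mice with 1 kidney 11 passed, 5 higher and 6 lower. Over all genes 13.9% and 14.2% passed, so these counts were close to the background. The medians were -0.05 and 0.00. With the slide as a random block 14 and 26 of all 16055 genes passed. The genes of this list were not followed singly through the alternative settings or without single mice. Acacb, the mitochondrial acetyl-CoA carboxylase whose product inhibits CPT1, passed as lower on both kidney numbers, with differences of -0.98 ± 0.20 and -0.996 ± 0.19. Acox2, a peroxisomal oxidase of branched chains, was lower too, with -0.59 ± 0.15 and -0.79 ± 0.14. Pex19 and Acsl5, a peroxisome assembly factor and an acyl-CoA synthetase, were higher on both. The differences were 0.93 ± 0.21 and 0.78 ± 0.20 for Pex19 and 0.43 ± 0.13 and 0.42 ± 0.12 for Acsl5. Called in sham mice alone were the lipid droplet coat gene Plin4 (-2.0 ± 0.52), the cytosolic carboxylase Acaca (-0.44 ± 0.13), the peroxisomal thioesterase Acot8 (-0.69 ± 0.21) and catalase, Cat (0.60 ± 0.17). Among those called in mice with 1 kidney alone were lipoprotein lipase, Lpl (-1.64 ± 0.36), the ketone body enzyme Bdh1 (-0.84 ± 0.21), the peroxisomal reductase Pecr (-0.46 ± 0.14) and the import receptor Pex5 (0.62 ± 0.16). Whether these differences varied with kidney number was tested by the interaction, in which none of the 65 passed. Plin4 and Lpl are also made by fat cells.

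Surgery gave no call among the 39 genes on either diet. On the low-fat diet 35 of the 39 were higher in UNX than in sham mice, with a median log2 difference of 0.12 beside 0.01 over all genes. On the high-fat diet 34 of 39 were higher, with a median of 0.24 beside 0.02. Over all 16055 genes the share above 0 was 52.2% and 54.7%, and 0.00623% (1 gene) and 0% passed. At an unadjusted p under 0.05, none of the 39 stood on the low-fat diet and 6 on the high-fat diet, beside 519 and 747 of all genes. Without each mouse in turn the median stayed above 0, but its size moved. On the low-fat diet it was 0.06 without LFD-sham 1, 0.20 without LFD-sham 2 and 0.19 without LFD-UNX 2. On the high-fat diet it ran from 0.17 to 0.32 without single mice, and was 0.12 with quantile normalization and 0.14 with cyclic loess. The 2 surgery comparisons share no sample, but the one on the low-fat diet cannot be told apart from slide. On the high-fat diet the median was 0.07 within slide 1 and 0.37 within slide 2. The genes of a pathway are measured on the same arrays and are not independent of each other.

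The respiratory chain genes had the same lean under surgery, with 26 of 26 above 0 and a median of 0.12 on the low-fat diet, and 25 of 26 and 0.15 on the high-fat diet. None of them passed. The proximal tubule markers had 9 of 10 and 7 of 10 above 0, with medians of 0.13 and 0.06. Markers of other nephron segments had 6 of 8 above 0 on each diet, with medians of 0.22 and 0.25. Adipocyte markers had 0 of 9 above 0 on the low-fat diet, with a median of -0.68, and 8 of 9 on the high-fat diet, with a median of 1.53. All 5 brown adipocyte markers tested were above 0 on both diets, with medians of 0.53 and 0.20. Liver markers had 7 of 9 and 4 of 9 above 0, with medians of 0.51 and -0.02, and striated muscle markers 0 of 4 and 3 of 4, with medians of -0.43 and 0.08. The part of these markers in the lean of the 39 genes was not tested.

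The single genes behind these counts differed by small amounts. Cpt1a, the rate-setting entry enzyme, read 3.87, 4.09, 4.08 and 4.01 in LFD-sham and 4.32, 4.38, 4.20 and 4.16 in LFD-UNX mice, with no overlap and a difference of 0.25 ± 0.14. On the high-fat diet it differed by 0.34 ± 0.15, with overlap. Acads on the low-fat diet read 1.82, 1.97, 2.12 and 2.32 in sham and 2.33, 2.39, 2.41 and 2.67 in UNX mice, a difference of 0.39 ± 0.28. Acsm3 differed there by 0.57 ± 0.40, also without overlap. These 3 of 39 compare with 2.6% of all genes that were higher without overlap, and 0 of 39 with 1.97% that were lower. The largest of the other lists on this diet were Acaa1b (0.33 ± 0.33), Hsd17b4 (0.22 ± 0.10), Acot1 (0.30 ± 0.37) and Vnn1 (0.18 ± 0.23).

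On the high-fat diet Hsd17b4 read 4.11, 4.01 and 4.12 in sham and 4.31, 4.33, 4.50 and 4.54 in UNX mice, a difference of 0.34 ± 0.11. Ppara read 3.57, 3.52 and 3.44 against 3.66, 3.80, 4.04 and 3.96, a difference of 0.36 ± 0.12 with the probe used for the gene. Its further probes differed by 0.05 ± 0.19 and 0.18 ± 0.30, both with overlap. Angptl4 differed by 0.55 ± 0.26. In these 3 genes, with the probe used for each, the groups did not overlap, which held for 1.72% of all genes in the higher direction. None of the 39 was lower without overlap, beside 1.21%. Slc25a20 had the largest difference, 0.65 ± 0.24, and read 0.35, -0.31 and -0.29 in sham and 0.77, 0.98, 0.23 and 0.29 in UNX mice, with overlap. Cpt2 (0.41 ± 0.21), Crat (0.59 ± 0.48), Pex11a (0.46 ± 0.23) and Plin2 (0.43 ± 0.25) were also above 0. Every adjusted p of the 39 genes on this diet was at least 0.999. The HFD-sham mice enter both these differences and the diet comparison in sham mice.

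**Figure D5:**
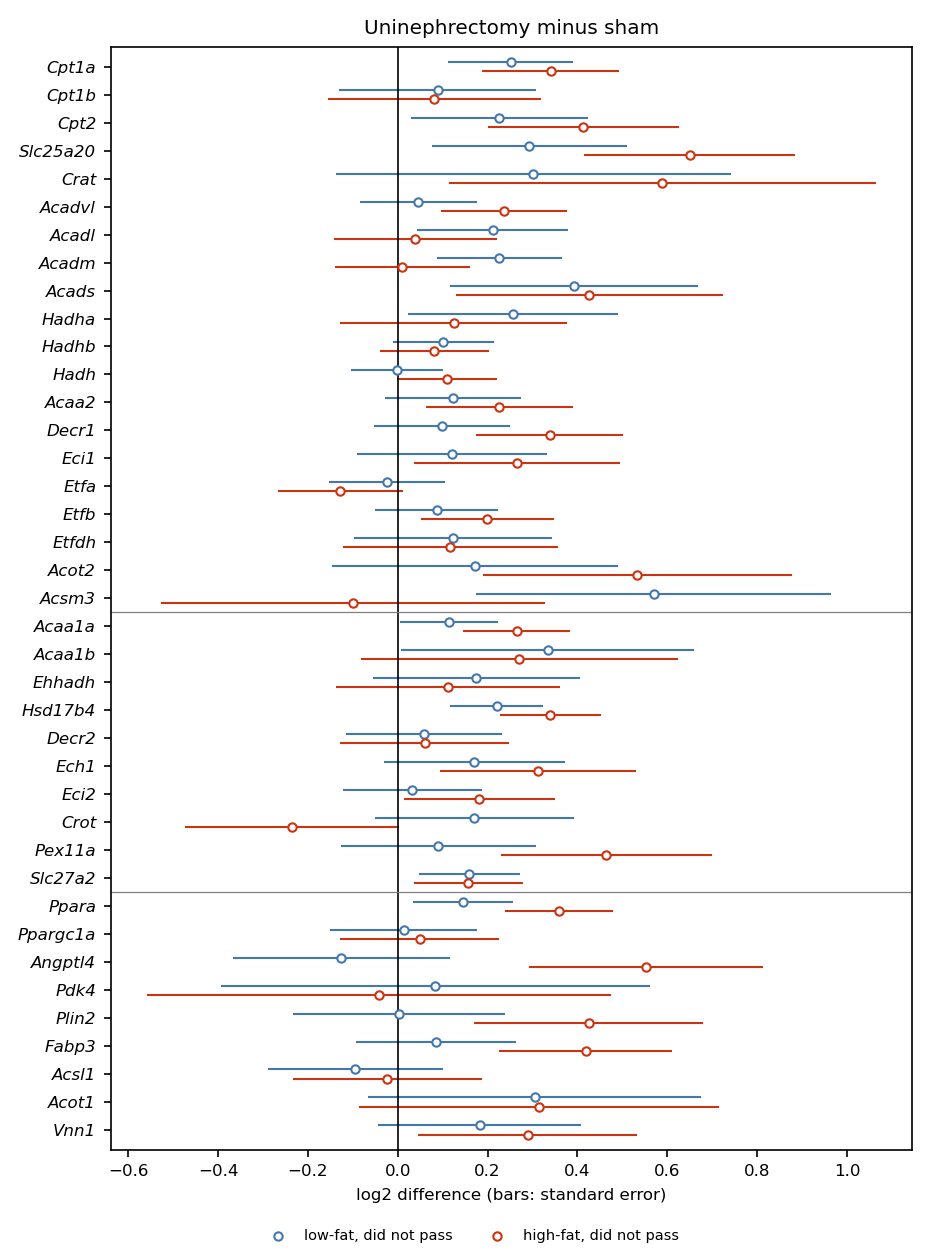
Log2 difference between uninephrectomy and sham (horizontal axis, with standard error bars) of each of the 39 genes (rows, by role), on the low-fat and on the high-fat diet; open points did not pass, and no gene passed. Most points lie right of 0, 35 of 39 on the low-fat and 34 of 39 on the high-fat diet, at a median of 0.12 and 0.24.

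The high-fat groups shared slides 1 and 2, and the slides differed. Between them 11 of the 39 genes passed, 8 higher on slide 1, beside 31% of all genes. Of the mitochondrial genes 8 of 20 did, among them Acads (0.95 ± 0.16), Crat (1.34 ± 0.34), Hadha (0.75 ± 0.16), Slc25a20 (0.63 ± 0.17) and, in the other direction, Cpt2 (-0.49 ± 0.17). Acaa1b (1.02 ± 0.24), Ech1 (0.66 ± 0.13) and Plin2 (0.60 ± 0.20) were higher on slide 1 too. Angptl4, Acaa1a, Ppara, Pex11a, Acadvl and Decr1 did not pass between slides. Within slide 1, which holds a single HFD-sham mouse, 24 of the 39 genes were higher after surgery, with a median of 0.07. Within slide 2 it was 30 of 39, with a median of 0.37, and 17 of the 39 genes had the same sign on both slides. Slc25a20 had 0.52 and 0.56, Hsd17b4 0.21 and 0.45, Ppara 0.16 and 0.53, and Angptl4 0.34 and 0.68. Crat had 1.36 on slide 1 and -0.30 on slide 2. With a replicate block confined to the HFD arrays, 24 of all genes and none of the 39 passed for surgery on the high-fat diet.

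The interaction, the effect of surgery on the high-fat diet minus that on the low-fat diet, was not called for any of the 39 genes or for any of all genes tested in limma. At an unadjusted p under 0.05 there were 0 and 219. The largest values were 0.68 ± 0.35 for Angptl4 and -0.67 ± 0.58 for Acsm3, and 26 of the 39 were above 0, beside 53.2% of all genes, with a median of 0.10. That median was 0.06 without LFD-sham 2, 0.05 without LFD-sham 3, LFD-UNX 2 or HFD-sham 2, and 0.02 with quantile normalization. The diet effects in sham mice and in mice with 1 kidney were thus not shown to differ for Angptl4, Ppara, Pex11a, Acadvl or Decr1. In the wider pathway 47 of 65 genes were above 0 for surgery on each diet, beside 52.2% and 54.7% of all genes. The medians were 0.09 on the low-fat and 0.10 on the high-fat diet, and none passed. On the high-fat diet the differences ran from -0.70 to 1.67. The highest was that of Cyp4a14, a classic PPAR-alpha target in omega-oxidation, at 1.67 ± 0.69.

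Mice of a group differed more in some of the genes than in others. The SD within a group had a median of 0.26 over the 20 mitochondrial, 0.27 over the 10 peroxisomal and 0.34 over the 9 regulators and other targets, beside 0.27 over all genes. Pdk4 had the widest spread at 0.75, followed by Crat (0.69), Acsm3 (0.62) and Acot1 (0.58). For Crat the SD was 1.15 in HFD-UNX, which split by slide, 0.67 in HFD-sham, 0.29 in LFD-sham and 0.20 in LFD-UNX. For Acsm3 it was 1.35 in HFD-sham and between 0.15 and 0.36 in the other groups. The narrowest were Hadh, Hsd17b4, Acaa1a and Ppara, between 0.10 and 0.12. Acot1 read 2.19, 4.26, 4.20 and 3.24 in the LFD-sham mice. LFD-sham 1 was the lowest of its group in 25 of the 39 genes, beside 30.4% of all genes, and LFD-UNX 4 was the highest of its group in 24, beside 26.9%. Without LFD-sham 1 the number of genes that passed between diets in sham mice was 4, beside the 6 reported.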

How the data were processed

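Per the labels' protocols, 100 ng of RNA from each frozen kidney was labelled with Cy3; the 1-colour arrays were Agilent's design 026655. The deposited intensity signals come from Agilent Feature Extraction (10.7.3.1 per the file headers; the submitters' notes give 10.7) and were background-subtracted within an array. The value table deposited by the authors repeats this signal, at 0.995 to 1.005 times the scanner value, with column medians of 56.7 to 251, so its scale is linear and uncentred.

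The log2 of the processed signal was centred on the 75th percentile of an array's non-control probes. Spots marked as outliers (74 to 273 per array) were dropped, and no spot was saturated. A probe needed a spot well above background on 3 arrays or more (28244 probes, 7161 of them unnamed), and the brightest probe stood for a gene. Names came from RefSeq accessions and a gene table of assembly GRCm38.p6, which named 27234 of 39429 probes as 20659 symbols. The 4 groups were fitted together with limma 3.58.1 (statmod 1.5.0, R 4.3.3; lmFit and eBayes) in 5 two-sided comparisons. The number of arrays limits the precision. The script was tested on simulated data, in which genes varied independently and neither slides nor scan days differed. Values after ± are SE unless marked SD.

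The 39 genes and all other lists were chosen with earlier results of these data known. Genes were named where they passed, where they had the 2 largest differences of a role in a pairwise comparison, or from a fixed panel of 14; up to 8 genes of the wider pathway were named per comparison. Other genes, such as Acadl, Fabp3, Ech1 and Cyp4a14, were named after their values were seen. Alternatives changed normalization, background correction (normexp with an offset of 50, on the median spot and background intensities), filters, probes, slide, replicate block, weights and the mice in the fit. For surgery on the high-fat diet, same-numbered arrays deviated together (r of 0.43, 0.12 and 0.33 over the genes), as seen in the data, with numbers 1 and 3 but not 2 sharing a slide; in the other comparisons r lay between -0.15 and 0.08.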

Additional observations from a re-analysis of the deposited data

Results flagged for a closer look

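Of 117 sets of 4 mice (39 genes in 3 groups), 6 held a mouse far from the other 3 by Dixon's test. Chance gives about 1 in 20. In LFD-sham 1 the normalised log2 signal was 1.83 for Acadl, with the other 3 mice between 2.27 and 2.36. The same mouse read 3.98 for Eci1, with the others between 4.46 and 4.49, and 4.22 for Ech1, with the others between 4.65 and 4.69. LFD-sham 2 read 4.09 for Ppara, with the others between 3.85 and 3.87. HFD-UNX 1 read 3.37 for Crot, with the others between 3.69 and 3.73, and HFD-UNX 3 read 2.32 for Vnn1, with the others between 2.70 and 2.77.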

How the results depend on the processing

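The number of the 39 genes that passed between diets in sham mice (6) was 1 with normexp, 3 with the mean of the probes of a gene, 3 with the replicate block, 3 with only the arrays of the groups compared and 0 with the slide as a random block (consensus correlation 0.41). Without each mouse in turn it ran from 2 to 8. In mice with 1 kidney (2) it was 1 with normexp, 0 with the slide as a random block, 4 with quantile normalization, 4 with the slide as a fixed term within the high-fat groups, 9 with array weights and 5 with the replicate block within the high-fat groups, the last chosen after seeing the data. Without each mouse in turn it ran from 1 to 4. Over all genes, where 2230 and 2278 passed, normexp gave 167 and 319, the slide as a random block 14 and 26, no filter 4850 and 3596, the slide as a fixed term 4474 and 4101, array weights 2996 and 5763, the replicate block within the high-fat groups 4021 and 4551, and only the arrays compared 1181 and 1915; without single mice the lowest were 1210 (HFD-sham 2) and 1297 (LFD-UNX 4). Surgery on the low-fat diet gave 101 genes with array weights. The cause was not tested. Median differences moved beyond the spread for the 39 genes in sham mice (-0.29 to -0.10 without single mice, the latter without HFD-sham 2), the mitochondrial genes in sham mice with array weights (-0.21), the 39 genes for surgery on the high-fat diet with quantile normalization (0.12) and the regulators for the interaction (0.0068 to 0.28 without single mice, the latter without LFD-sham 1). Decr1 reversed to 0.0217 with the mean of its probes. In surgery and interaction, no alternative gave a call among the 39 genes. Same-numbered arrays were not paired for diet; under the replicate block Angptl4, Acaa1a and Acadvl stayed past the threshold in sham mice.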
